A study of Mus musculus with 16 samples.

Results

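The livers were examined here for 10 genes that take up, remodel, assemble or break down lipoproteins: Scarb1, Lrp1, Lcat, Pltp, Lipc, Mttp, Sort1, Soat2, Lipa and Npc1. They are a list of named genes, set by function with no value in its rule, out of the 20284 gene symbols that could be assigned to probes of the array, and they are covered by 12 probes. In 8 livers from ApoE KO males fed a high-fat diet, the treatment was miR-185-inh, which the series describes as an antisense miR-185 delivered by lentivirus. The other 8 livers came from ApoE KO males on the same diet given ctrl-inh. The labels state an age of 8 weeks for both groups and a harvest after 8 weeks. Every mouse lacks apolipoprotein E, a ligand of remnant receptors, so nothing here describes a liver with that ligand. RNA was taken from whole liver, and the cells that the lentivirus reached are not stated. Fewer cells of a type and less RNA per cell cannot be told apart in such samples.

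The liver secretes triglyceride-rich particles built on apolipoprotein B and takes back their remnants and the cholesterol carried by HDL. In the plasma, enzymes and transfer proteins esterify, move and hydrolyse the lipids of these particles. Particles that enter a hepatocyte whole end in the lysosome, where their cholesteryl esters are split and the free cholesterol is passed on to other membranes. miR-185 is a microRNA that has been reported to repress SCARB1 in human hepatic cell lines.

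The hairpin from which miR-185 is cut is shown because it gives the molecule that the inhibitor is directed against. The labels do not say which arm the inhibitor pairs with. The sequences are those of RefSeq for GRCm38.p6, chr16:18327401-18327465, minus strand. In the hairpin the capitals mark the 3p arm, and in the mature 3p sequence they mark its seed, bases 2 to 8. The mature sequence of the other arm was absent from the reference used, so that arm is not marked. The marking does not mean that the inhibitor pairs with the 3p arm.
mmu-mir-185 hairpin: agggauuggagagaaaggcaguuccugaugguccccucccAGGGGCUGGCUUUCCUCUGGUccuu
mmu-miR-185-3p: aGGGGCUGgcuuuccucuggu
No probe was assigned to Mir185 (0 of the probes on the array), so the level of the microRNA was not analysed here.

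Each sample was hybridised to 1 array, with 59305 non-control spots, of which 58.7% to 74.8% were well above background. The miR-185-inh arrays shared a slide and a scan, and the ctrl-inh arrays shared another slide and scan, so the differences of treatment and of slide cannot be told apart. Each slide held its arrays in 2 rows, and each row held 4 arrays, so every row number occurs in both groups. The labels number the samples, taken here as mice, without saying that they are separate animals, so the p-values measure the spread between samples, which may be technical. The number of arrays limits the precision. Apoe signal lay between 3.64 and 4.44 in miR-185-inh livers and between 3.54 and 4.58 in ctrl-inh livers, which checks nothing about the knockout, because the probe may lie outside the deleted part. The brightest hepatocyte markers, Alb and Serpina1a, were above background on all 16 arrays.

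None of the 12 probes passed the test of miR-185-inh against ctrl-inh livers. All 12 were well above background on all 16 arrays, with no saturated spot, and 0 passed an adjusted p of 0.05 by limma with Benjamini-Hochberg adjustment over 35469 probes. Among all probes tested, 4.27% were called (1516 probes), 1.08% as higher and 3.2% as lower with miR-185-inh. That count of called probes was 951 without miR-185-inh mouse 6, 885 without miR-185-inh mouse 7, 910 without ctrl-inh mouse 11 and 889 without ctrl-inh mouse 12. At an unadjusted p of 0.05, 0 of the 12 probes passed, against 19.8% of all probes. The 8 values of one group overlapped the 8 of the other for every one of the 12 probes, while 0.812% of all probes had groups that did not overlap. Differences are given as miR-185-inh minus ctrl-inh on the log2 scale, and levels as log2 signal relative to the 75th percentile of each array. The difference was above 0 for 8 of the 12 probes and below 0 for 4, with a median of 0.043. With the percentile taken over probes detected on all arrays, the brighter Scarb1 probe and Lipc turned to -0.013 and -0.012. Taking the brightest probe of each gene, the median was 0.014 over the 10 genes and -0.033 over all genes.

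**Figure D1:**
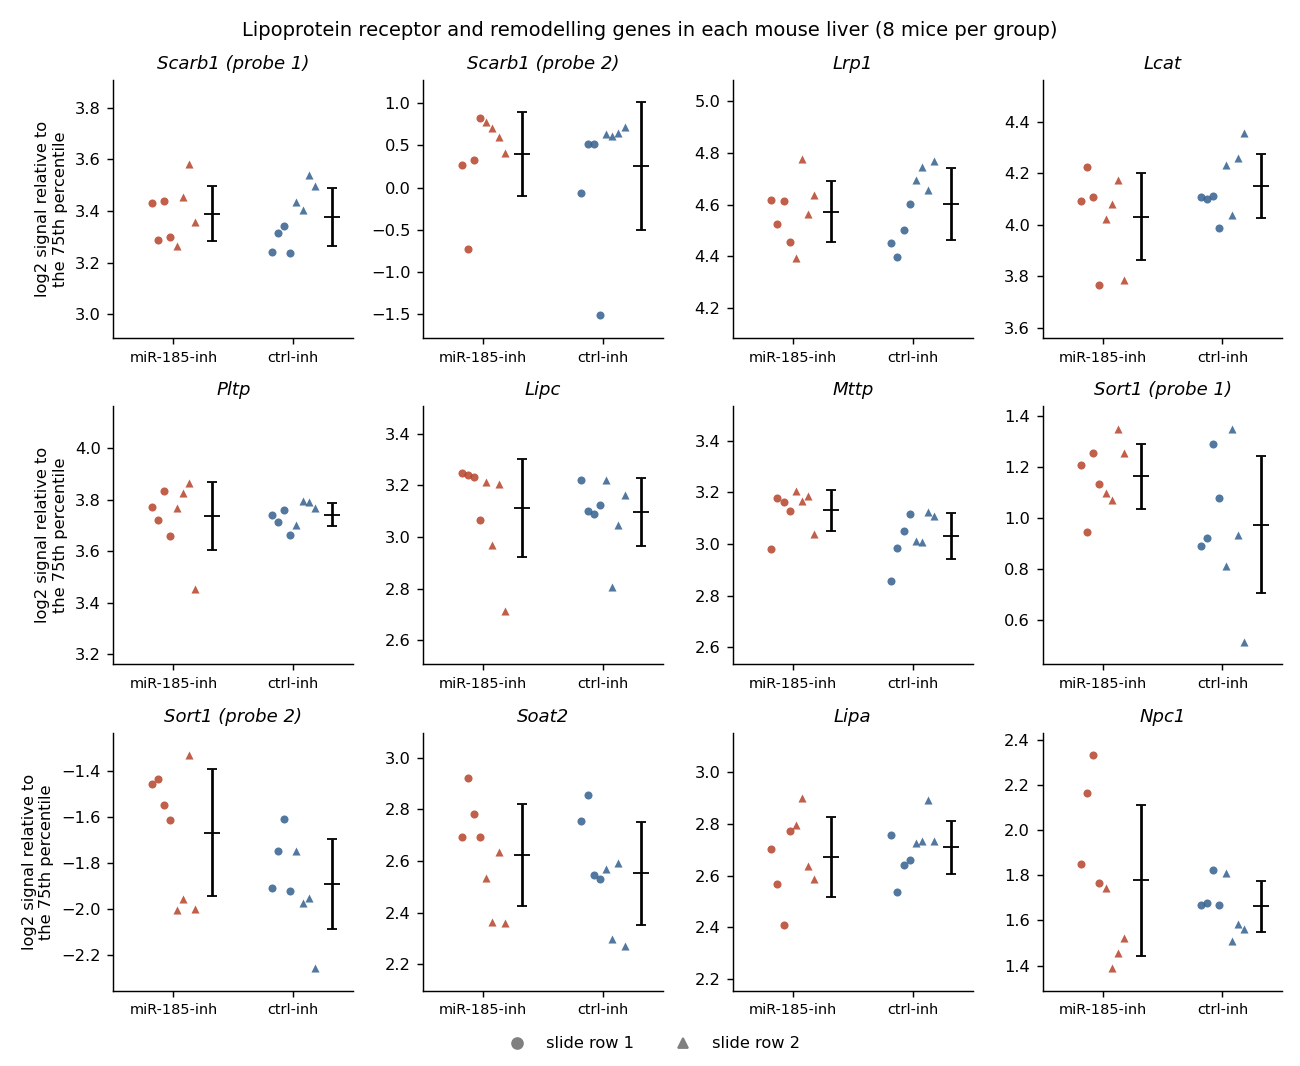
Each panel plots 1 probe on a log2 scale relative to the 75th percentile of its array (vertical axis), with 8 miR-185-inh livers on the left and 8 ctrl-inh livers on the right; circles are slide row 1, triangles slide row 2, and bars the mean ± SD. The groups overlap in every panel, Mttp has 6 of 8 miR-185-inh values above the highest ctrl-inh value, and Npc1 spreads from 1.39 to 2.33 in miR-185-inh livers.

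Among the receptors, Scarb1 had nearly equal levels in the groups. Scarb1 encodes SR-BI, the HDL receptor through which hepatocytes take up cholesteryl ester. Its brighter probe (A_55_P1954021) had a lowest, median and highest level of 3.26, 3.39 and 3.58 in miR-185-inh livers, against 3.24, 3.37 and 3.54 in ctrl-inh livers. Of the 8 miR-185-inh livers, 4 lay above the ctrl-inh mean. The means were 3.39 ± 0.11 in miR-185-inh livers and 3.38 ± 0.11 in ctrl-inh livers (SD, n = 8 each), a difference of 0.013 (SE 0.064, limma adjusted p = 0.939). The 95% interval of the ratio ran from 0.919 to 1.11.

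The dimmer Scarb1 probe (A_55_P2088965) was the most variable of the 12. Its lowest, median and highest levels were -0.73, 0.51 and 0.82 in miR-185-inh livers, against -1.51, 0.56 and 0.71 in ctrl-inh livers. A single liver in each group lay far below the rest, miR-185-inh mouse 3 and ctrl-inh mouse 4. The difference was 0.14 (SE 0.29, limma adjusted p = 0.838), and it was -0.11 when ctrl-inh mouse 4 was left out.

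Lrp1 encodes a large endocytic receptor that clears remnant particles. Its levels were 4.39, 4.59 and 4.78 (lowest, median, highest) in miR-185-inh livers and 4.40, 4.63 and 4.77 in ctrl-inh livers. The ranges of the groups nearly coincided. The means were 4.57 ± 0.12 in miR-185-inh livers and 4.60 ± 0.14 in ctrl-inh livers (SD, n = 8 each), with a difference of -0.030 (SE 0.071, limma adjusted p = 0.859).

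Of the proteins that act in plasma, Lcat had the only negative difference above 0.1 in size. Lcat encodes the enzyme that esterifies cholesterol on HDL. The lowest, median and highest Lcat levels were 3.77, 4.09 and 4.22 in miR-185-inh livers, against 3.99, 4.11 and 4.36 in ctrl-inh livers. miR-185-inh mice 7 and 12 lay below every ctrl-inh liver, and 2 of the 8 miR-185-inh livers lay above the ctrl-inh mean. Mean Lcat was 4.03 ± 0.17 in miR-185-inh livers and 4.15 ± 0.12 in ctrl-inh livers (SD, n = 8 each). The difference of -0.12 (SE 0.078) did not pass the test (limma adjusted p = 0.438, two-sided exact permutation p = 0.141).

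Pltp, which encodes the protein that moves phospholipid between lipoproteins, had nearly equal means and a wider spread in miR-185-inh livers. Its levels were 3.45, 3.77 and 3.87 (lowest, median, highest) in miR-185-inh livers and 3.66, 3.75 and 3.79 in ctrl-inh livers. In the miR-185-inh livers 3 values lay above and 2 below the whole ctrl-inh range, and mouse 12 was the lowest. The SD was 0.13 in miR-185-inh livers and 0.046 in ctrl-inh livers (n = 8 each), and the difference in spread was not tested. The means differed by -0.0050 (SE 0.060, limma adjusted p = 0.977).

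Lipc encodes hepatic lipase, which hydrolyses triglyceride and phospholipid of remnants and HDL. Lipc levels were 2.71, 3.21 and 3.25 (lowest, median, highest) in miR-185-inh livers, against 2.81, 3.11 and 3.22 in ctrl-inh livers. Both groups had 1 low liver, miR-185-inh mouse 12 and ctrl-inh mouse 9. The difference was 0.014 (SE 0.085, limma adjusted p = 0.950), and without ctrl-inh mouse 9 it was -0.027.

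Among the genes of particle assembly, Mttp had the smallest spread of the 12 probes and a small positive difference. Mttp encodes the microsomal protein that loads lipid onto apolipoprotein B. Its lowest, median and highest levels were 2.98, 3.16 and 3.21 in miR-185-inh livers, against 2.86, 3.03 and 3.12 in ctrl-inh livers. All but 1 of the miR-185-inh livers (7 of 8) lay above the ctrl-inh mean, and 6 lay above the highest ctrl-inh liver. The means were 3.13 ± 0.079 in miR-185-inh livers and 3.03 ± 0.088 in ctrl-inh livers (SD, n = 8 each), a ratio of 1.07 with a 95% interval from 0.987 to 1.16. The two-sided exact permutation test of Mttp alone gave p = 0.0329, unadjusted, while limma gave p = 0.0949 before adjustment and 0.349 after it.

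Sort1 had the largest differences of the set, at both of its probes. Sort1 encodes sortilin, a sorting receptor of the Golgi that binds apolipoprotein B. The brighter probe (A_52_P590396) read 0.94, 1.17 and 1.35 (lowest, median, highest) in miR-185-inh livers and 0.51, 0.93 and 1.35 in ctrl-inh livers. All 8 miR-185-inh values lay within the ctrl-inh range, and 7 of them lay above the ctrl-inh mean. Mean levels were 1.16 ± 0.13 in miR-185-inh livers and 0.97 ± 0.27 in ctrl-inh livers (SD, n = 8 each), a difference of 0.19 (SE 0.10, limma adjusted p = 0.329, two-sided exact permutation p = 0.0886).

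The dimmer Sort1 probe (A_51_P517145) read -2.00, -1.58 and -1.33 (lowest, median, highest) in miR-185-inh livers and -2.26, -1.92 and -1.61 in ctrl-inh livers. Its miR-185-inh values fell into 5 livers at or above -1.61 and 3 livers between -2.00 and -1.96, and 4 of the 8 lay above every ctrl-inh value. The difference was 0.22 (SE 0.12, limma adjusted p = 0.306, two-sided exact permutation p = 0.0855). In ratio, the 95% intervals ran from 0.981 to 1.33 for the brighter probe and from 0.984 to 1.38 for the dimmer one.

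Soat2 encodes the cholesterol acyltransferase of hepatocytes and enterocytes, which makes cholesteryl ester for new particles. Soat2 levels were 2.36, 2.67 and 2.92 (lowest, median, highest) in miR-185-inh livers, against 2.27, 2.56 and 2.86 in ctrl-inh livers. Only 1 miR-185-inh liver, mouse 3, lay above the ctrl-inh range. The difference was 0.071 (SE 0.099, limma adjusted p = 0.745), and 0.028 without miR-185-inh mouse 3.

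In the lysosome, Lipa encodes the acid lipase that splits cholesteryl esters and triglycerides. Lipa levels were 2.41, 2.67 and 2.90 (lowest, median, highest) in miR-185-inh livers, against 2.54, 2.73 and 2.89 in ctrl-inh livers. The ranges overlapped over most of their length, with 6 of 8 miR-185-inh values inside the ctrl-inh range. The difference was -0.038 (SE 0.072, limma adjusted p = 0.820).

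Npc1 encodes the membrane protein that moves free cholesterol out of late endosomes and lysosomes. Its levels were 1.39, 1.75 and 2.33 (lowest, median, highest) in miR-185-inh livers and 1.51, 1.67 and 1.82 in ctrl-inh livers. miR-185-inh mice 6, 3 and 1 lay above every ctrl-inh value, and mice 9 and 10 lay below every one. The SD was 0.34 in miR-185-inh livers and 0.11 in ctrl-inh livers (n = 8 each), and the difference of means was 0.11 (SE 0.12, limma adjusted p = 0.647). When miR-185-inh mice 3 and 6 were both left out, a choice made after seeing their values, the difference was -0.043.

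**Figure D2:**
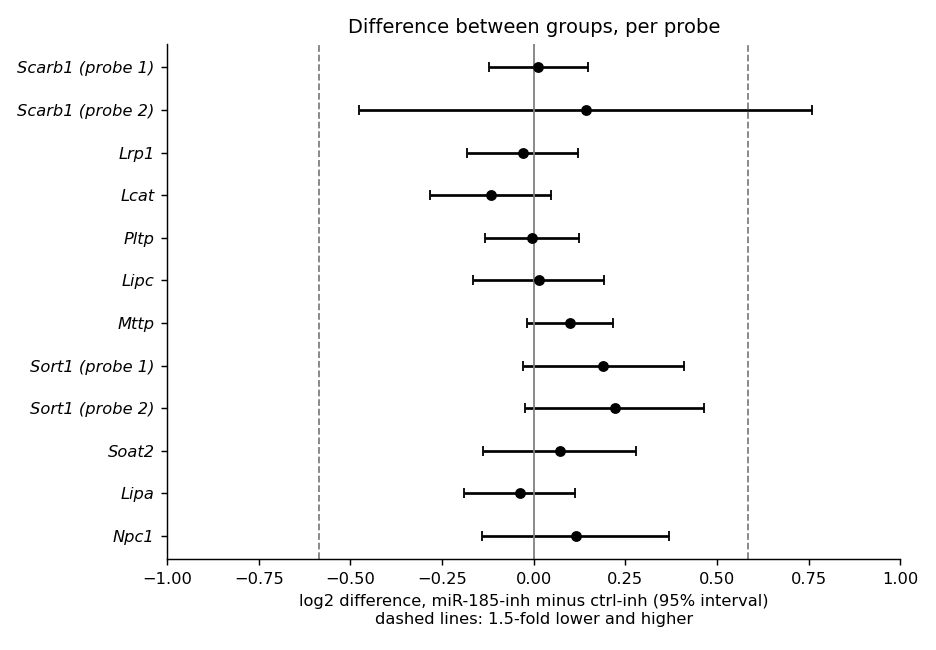
Points give the log2 difference, miR-185-inh minus ctrl-inh, of each of the 12 probes (horizontal axis) from 8 livers per group, and bars its 95% interval by limma; dashed lines mark 1.5-fold either way. Every interval includes 0, and only the interval of the dimmer Scarb1 probe, from -0.48 to 0.76, passes a dashed line.

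A probe that misses the threshold is not thereby shown to be equal between groups, and the intervals give the sizes that these arrays leave possible. For 8 of the 12 probes the whole 95% interval of the difference lay within 1.25-fold either way, against 41.3% of all probes tested. For 11 of the 12 it lay within 1.5-fold, against 80.8% of all probes. The exception was the dimmer Scarb1 probe. The within-group SD of the 12 probes ran from 0.084 for Mttp to 0.64 for the dimmer Scarb1 probe with a median of 0.16, and 9 of the 12 were below the median of 0.22 over all probes.

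Levels were also compared by slide row, since each row number occurs in both groups. In both groups row 1 held the lower mouse numbers and row 2 the higher ones. Position on the slide and order of the mice therefore cannot be told apart in any row difference. The share of spots well above background also differed by row. Among ctrl-inh arrays it was 68.6% to 74.8% in row 1 and 58.7% to 64.2% in row 2. Among miR-185-inh arrays it was 62.5% to 67.1% in row 1 and 60.7% to 62.3% in row 2. The part of this share in the row differences was not tested. In miR-185-inh livers Npc1 read 1.76 to 2.33 on the 4 arrays of slide row 1 and 1.39 to 1.74 on the 4 of row 2, without overlap. In ctrl-inh livers Npc1 read 1.67 to 1.82 in row 1 and 1.51 to 1.81 in row 2, with overlap. The Npc1 difference between groups was 0.32 within row 1 (95% interval 0.021 to 0.62, limma adjusted p = 0.267) and -0.090 within row 2 (95% interval -0.34 to 0.16, limma adjusted p = 0.700). The change of the difference from row to row was -0.41 (SE 0.17), with an unadjusted limma p of 0.0323 and an adjusted p of 0.312. Over the 12 probes, 0 passed this row test after adjustment, while 0.124% of all probes did. Before adjustment 1 of the 12, Npc1, passed, against 4857 of the 35469 probes tested.

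Within row 1 alone 0 of the 12 probes passed after adjustment and 2 before it (limma), Npc1 and the dimmer Sort1 probe, and 0% of all probes tested were called although 6049 had an unadjusted p under 0.05. Within row 2 alone 0 of the 12 passed before or after adjustment, while 1% of all probes tested were called and 7123 had an unadjusted p under 0.05. Sort1, Mttp and Soat2 had a positive difference in both rows, and Lcat and Lipa a negative one. The brighter Sort1 probe differed by 0.091 in row 1 and 0.29 in row 2, the dimmer one by 0.28 and 0.16, and Mttp by 0.11 and 0.087. Soat2 differed by 0.10 in row 1 and 0.040 in row 2, Lcat by -0.030 and -0.21, and Lipa by -0.037 and -0.040. Scarb1, Lrp1, Pltp, Lipc and Npc1 were positive in row 1 and negative in row 2, with an interval that included 0 in each case but Npc1 in row 1.

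Rows were also compared inside each group. Among ctrl-inh livers 0 of the 12 probes differed between rows after adjustment, while 3.25% of all probes were called by limma. Before adjustment 2 of the 12 had a p under 0.05, against 8724 of the 35469 probes tested. The ctrl-inh levels of Lrp1 were 4.66 to 4.77 in row 2 and 4.40 to 4.60 in row 1, a difference of 0.23 (SE 0.071, limma adjusted p = 0.107). For the brighter Scarb1 probe ctrl-inh levels were 3.40 to 3.54 in row 2 and 3.24 to 3.34 in row 1, a difference of 0.19 (SE 0.066, limma adjusted p = 0.142). These row differences among ctrl-inh livers exceeded in size the differences between groups of the same probes, -0.030 and 0.013. Among miR-185-inh livers the Npc1 difference of row 2 minus row 1 was -0.50 (SE 0.15) and that of Soat2 -0.30 (SE 0.11), with limma adjusted p = 0.413 and 0.420, and 0% of all probes were called there, 3985 having an unadjusted p under 0.05.

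**Figure D3:**
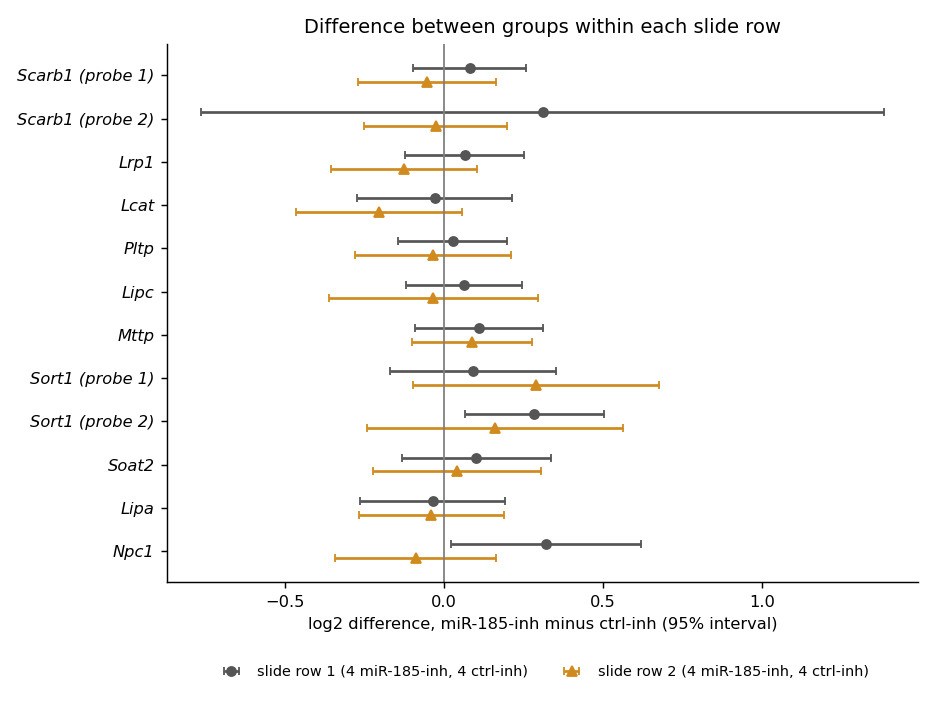
For each of the 12 probes the log2 difference, miR-185-inh minus ctrl-inh (horizontal axis, bars 95% intervals), is drawn within slide row 1 (circles) and within slide row 2 (triangles), each from 4 livers per group. Npc1 is 0.32 in row 1 and -0.090 in row 2, both Sort1 probes, Mttp and Soat2 are above 0 in both rows, and Lcat and Lipa are below 0 in both.

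The paired probes of Scarb1 and of Sort1 were compared across livers within each group. For Scarb1, r across the 8 miR-185-inh livers was 0.20 (rho -0.071, exact permutation p = 0.638 and 0.882). Across the 8 ctrl-inh livers it was 0.70 (rho 0.98, exact permutation p = 0.0137 and 0.000397). Adjusted over the 4 combinations of gene and group, the exact permutation p of the ctrl-inh values was 0.0549 for r and 0.00159 for rho, so the Scarb1 probes ranked the ctrl-inh livers alike. Without the 2 livers farthest from the median of the brighter probe, the Scarb1 r was 0.39 in miR-185-inh livers and 0.87 in ctrl-inh livers. For Sort1, r was 0.20 in miR-185-inh livers (rho 0.26, exact permutation p = 0.630 and 0.536) and 0.54 in ctrl-inh livers (rho 0.071, exact permutation p = 0.161 and 0.882). Without the 2 farthest livers the Sort1 r was 0.42 in miR-185-inh livers and 0.46 in ctrl-inh livers. Among ctrl-inh livers both Scarb1 probes read higher in row 2 than in row 1, without overlap. The brighter one read 3.24 to 3.34 in row 1 and 3.40 to 3.54 in row 2, the dimmer one -1.51 to 0.52 and 0.61 to 0.71. The part of the rows in the Scarb1 correlation was not tested. Each row held 4 livers of a group, too few for a value within rows.

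**Figure D4:**
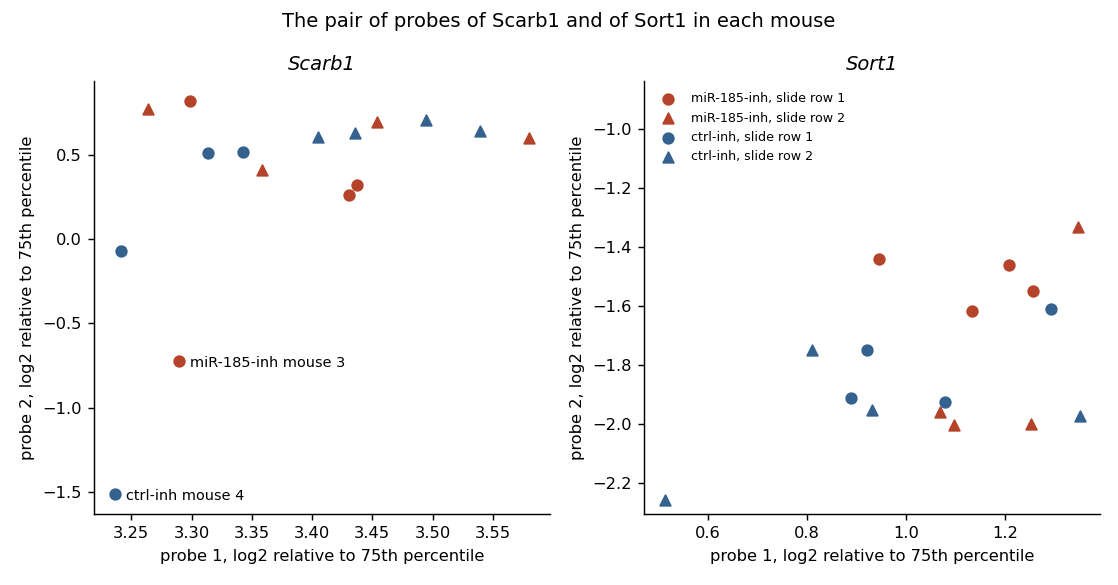
The brighter probe (probe 1, horizontal) is plotted against the dimmer probe (probe 2, vertical) of Scarb1 and of Sort1, in log2 units relative to the 75th percentile, 1 point per liver (8 per group), with colour for the group and shape for the slide row. For Scarb1, miR-185-inh mouse 3 at -0.73 and ctrl-inh mouse 4 at -1.51 lie apart on the vertical axis.

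Across mice, the 10 genes showed no shared pattern that passed a test. For the 45 pairs of genes in both groups, 90 exact permutation tests of r were run, of which 0 passed after Benjamini-Hochberg adjustment and 8 before it. No pair was among those 8 in both groups. Soat2, which makes cholesteryl ester, and Npc1 had r = 0.82 in miR-185-inh livers (rho 0.83, exact permutation p = 0.0159 and 0.0154, adjusted p = 0.402 and 0.490), and 0.72 without the 2 livers farthest from the Soat2 median. Lrp1 and Soat2 had r = -0.89 in ctrl-inh livers (rho -0.81, exact permutation p = 0.00320 and 0.0218, adjusted p = 0.288 and 0.490), and -0.69 without the 2 farthest livers. Slide rows moved with both pairs: Soat2 and Npc1 read higher in row 1 than in row 2 among miR-185-inh livers, and among ctrl-inh livers Soat2 in row 2 minus row 1 was -0.24 (SE 0.11, limma adjusted p = 0.234) where Lrp1 was 0.23. The part of the rows in these correlations was not tested. Lcat, Pltp and Lipc had pairwise r of 0.71 to 0.76 in miR-185-inh livers, where mouse 12 was lowest or next to lowest for all 3 genes. Without the 2 farthest livers, r was -0.11 for Lcat and Pltp, 0.26 for Lcat and Lipc and -0.33 for Pltp and Lipc, so those relations rest on these livers.

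Sort1 was the member whose brightest probe had the smallest limma p (0.0838 before adjustment, against 0.0949 for Mttp, which had the smallest exact permutation p), and the genes most like it across livers were listed by Pearson r over the 16 arrays after removing each group's mean. Among 15153 named genes, the highest r was 0.79 for Rhbdd3, followed by 0.77 for Jag1, 0.77 for Cdkn2c, 0.76 for Anxa9 and 0.75 for Snx24. These are the highest of many values and carry no test. None of these 5 genes passed the comparison of groups. Anxa9 averaged 1.72 ± 0.13 in miR-185-inh livers and 1.52 ± 0.17 in ctrl-inh livers (SD, n = 8 each, limma adjusted p = 0.166), and Snx24 1.60 ± 0.093 in miR-185-inh livers and 1.70 ± 0.18 in ctrl-inh livers (SD, n = 8 each, limma adjusted p = 0.518).

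Other genes of the same pathways were read by the brightest probe of each gene. Beside each list below stand the shares of all probes tested, 4.27% called and 19.8% with an unadjusted p under 0.05 by limma. The median difference over all genes, by brightest probe, was -0.033. Of 19 other receptors and uptake genes tested out of 21, 0 were called by limma and 2 had an unadjusted p under 0.05, with 6 differences above 0, 13 below 0 and a median of -0.037. Lrp8 and Olr1 were not above background on enough arrays. Sdc1, a heparan sulphate proteoglycan that binds remnants, averaged 2.29 ± 0.13 in miR-185-inh livers and 2.50 ± 0.16 in ctrl-inh livers (SD, n = 8 each, limma adjusted p = 0.152). Lsr, a receptor of triglyceride-rich particles, averaged 4.08 ± 0.12 in miR-185-inh livers and 4.24 ± 0.13 in ctrl-inh livers (SD, n = 8 each, limma adjusted p = 0.229). Msr1, a scavenger receptor of macrophages, had a difference of -0.30 (SE 0.14, limma adjusted p = 0.258).

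Of 12 genes of plasma lipolysis and remodelling, all tested, 0 were called and 0 had an unadjusted p under 0.05 by limma, with 5 differences above 0, 7 below 0 and a median of -0.047. Angptl8, a hepatic inhibitor of lipoprotein lipase, had a lowest, median and highest level of 4.09, 4.92 and 5.07 in miR-185-inh livers, against 3.88, 4.29 and 4.95 in ctrl-inh livers. Its difference of 0.35 (SE 0.18) did not pass (limma adjusted p = 0.293). Lpl, lipoprotein lipase itself, had a difference of -0.26 (SE 0.15, limma adjusted p = 0.350). Lmf1, a chaperone needed for lipases to fold, had 0.11 (SE 0.059, limma adjusted p = 0.299), while its other probe gave -0.11.

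Of 13 genes of assembly and secretion, all tested, 0 were called and 0 had an unadjusted p under 0.05 by limma, with 9 differences above 0, 4 below 0 and a median of 0.026. Sec24a, a COPII coat protein of vesicles leaving the endoplasmic reticulum, had the largest difference, 0.58 (SE 0.34, limma adjusted p = 0.371), but its 2 other probes gave -0.05 and -0.10. Sec24d, another coat protein, had -0.10 (SE 0.086, limma adjusted p = 0.546). Mia2, a cargo receptor at the same exit sites, had 0.074 (SE 0.068, limma adjusted p = 0.594).

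Of 19 genes of sterol storage, lysosome and intracellular transport tested out of 20, 0 were called and 1 had an unadjusted p under 0.05 by limma, with 9 differences above 0, 10 below 0 and a median of -0.017. The gene with that p was Stard4, a soluble sterol carrier, which averaged 1.85 ± 0.14 in miR-185-inh livers and 1.56 ± 0.27 in ctrl-inh livers (SD, n = 8 each, limma adjusted p = 0.128), while its other probe gave a difference of -0.17. Vps35, a subunit of the retromer coat, had a difference of 0.13 (SE 0.064, limma adjusted p = 0.269). Npc1l1 was not above background on enough arrays. Npc2, the lysosomal protein that hands cholesterol to Npc1, had -0.13 (SE 0.071, limma adjusted p = 0.317).

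**Figure D5:**
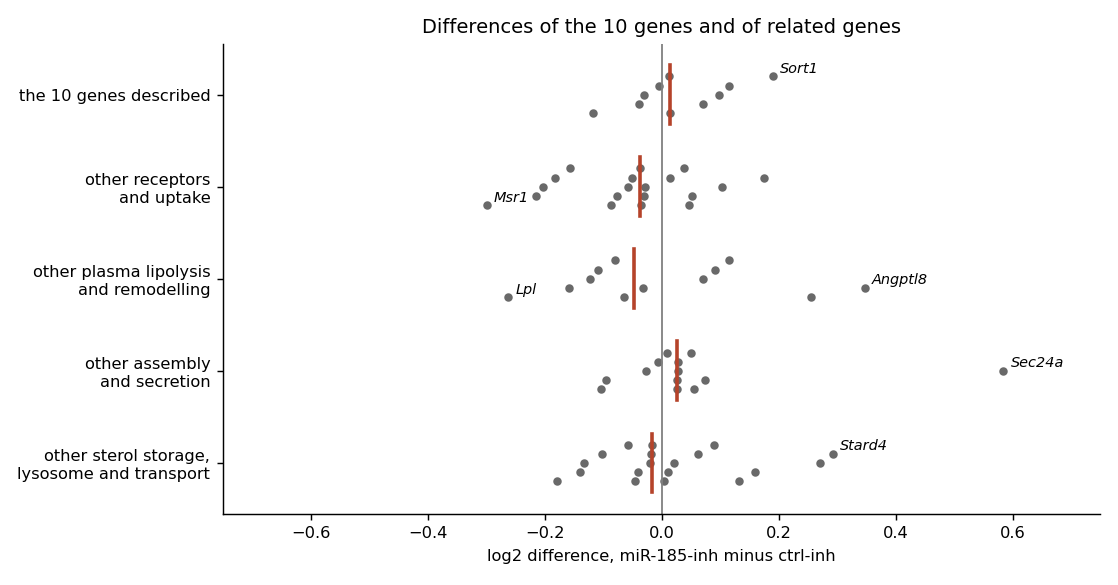
Points give the log2 difference, miR-185-inh minus ctrl-inh, of the brightest probe of each gene (horizontal axis) for the 10 genes described and for 4 lists of related genes, from 8 livers per group; red lines are the medians of the lists. The medians lie between -0.047 and 0.026, and Sec24a at 0.58 is the farthest point.

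Markers of other cells were read on the same arrays, since Lrp1, Lipa, Npc1, Lpl and Msr1 are also expressed by macrophages. Of 14 Kupffer cell and macrophage markers, 0 were called and 0 had an unadjusted p under 0.05 by limma, against 4.27% and 19.8% of all probes. Of these markers 13 lay below 0, and their median difference was -0.14, against -0.033 over all genes. The brightest were Cd5l, with a difference of -0.047 (SE 0.096, limma adjusted p = 0.837), and Clec4f, with -0.16 (SE 0.080, limma adjusted p = 0.297). Their summed level, relative to the 75th percentile on a linear scale, was 73.5 to 127 in miR-185-inh livers and 93.4 to 135 in ctrl-inh livers. Of 12 neutrophil markers all lay below 0 with a median of -0.89, and 8 had an unadjusted p under 0.05 by limma, against 19.8% of all probes. Among them 2 were called lower, against 3.2% of all probes. These were Ngp with a difference of -1.22 (SE 0.33, limma adjusted p = 0.0449) and Ltf (limma adjusted p = 0.0255). Ltf was well above background on 3 of 8 miR-185-inh arrays and on 8 of 8 ctrl-inh arrays. Mpo was so on 3 of 8 miR-185-inh arrays and on 7 of 8 ctrl-inh arrays. Ltf and Mpo therefore entered the test mainly through the ctrl-inh arrays, and no size of their differences is given. The median and the counts of neutrophil markers include both genes, so they rest partly on that filter. The neutrophil sum was 7.70 to 49.6 in miR-185-inh livers and 11.3 to 52.1 in ctrl-inh livers, with Lcn2 and S100a9 as its brightest members. In log2 levels Lcn2 averaged 3.09 in miR-185-inh livers and 4.04 in ctrl-inh livers, against -4.34 and -3.11 for Ngp. The linear sum therefore follows its brightest members and says little of the dim markers.

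The remaining marker lists had no called gene. The 11 hepatocyte markers tested lay below 0 in 9 cases, with a median of -0.032 and a sum of 343 to 451 in miR-185-inh livers against 363 to 508 in ctrl-inh livers. The 9 stellate markers, led by Colec11 and Col3a1, lay above 0 in 8 cases, with a median of 0.13 and a sum of 16.9 to 30.9 in miR-185-inh livers against 15.2 to 31.8 in ctrl-inh livers. The 8 sinusoidal endothelial markers, led by Clec4g and Stab2, lay above 0 in 4 cases, with a median of 0.0044 and a sum of 26.5 to 39.9 in miR-185-inh livers against 25.6 to 41.6 in ctrl-inh livers. In these 3 lists 0 markers were called and 0 had an unadjusted p under 0.05 by limma, against 4.27% and 19.8% of all probes. The part of cell composition in the values of the 10 genes was not tested.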

How the data were processed

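Liver RNA of 16 samples, taken here as mice, was measured on 1-colour Agilent arrays. The deposited scanner files give each spot's intensity after background subtraction and detrending by Feature Extraction 11.5.1.1, per the file headers, whereas the version in the submitters' processing notes is 9.1. The authors' deposited value table is on a log2 scale and equals log2 of that intensity minus 1 constant per array, with column medians from -1.30 to -1.22; how that constant was chosen is not stated in those sources.

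Here each array's log2 intensity had its 75th percentile over non-control spots subtracted. Outlier spots were dropped, spots of a probe averaged, and a probe was tested if 8 or more of the 16 arrays, of either group, had it well above background (35469 of 55681). Symbols came from unversioned accessions in the RefSeq table (26762 probes named); no coordinates were used, since the array grid is mm9.

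Groups, taken from the treatment label, were compared per probe with limma 3.58.1 in R 4.3.3 (lmFit, eBayes, two-sided, Benjamini-Hochberg over all probes, threshold 0.05), and single probes also by exact permutation over 12870 splits. Correlations used 40320 pairings. The limma comparison of groups was tested on simulated data. Those data held independent noise for each probe and no slide or row effect, so that test says nothing about such effects. Named genes were all members, the called genes of each related list or else its 3 smallest p, the 2 brightest and all called genes of each marker list, and the 5 genes most like Sort1. The members and lists were chosen with earlier results of these data known. Normexp (offset 50), planned on the spot signal, was run on its median. Shared mouse numbers (1, 3, 8, 9 and 12) showed correlations of deviations from -0.12 to 0.11, so they were not taken as pairs.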

Additional observations from a re-analysis of the deposited data

Results flagged for a closer look

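For 3 of the 24 sets of 8 values (12 probes in each group) the lowest liver stood apart from the others by Dixon's criterion at 95%, which chance alone meets in about 1 set in 20. At the dimmer Scarb1 probe, miR-185-inh mouse 3 read -0.73, against 0.27 in the next lowest miR-185-inh liver, a gap of 0.64 of the range. At the same probe ctrl-inh mouse 4 read -1.51, against -0.067 in the next lowest ctrl-inh liver, a gap of 0.65 of the range. At the Lipc probe ctrl-inh mouse 9 read 2.81, against 3.05 in the next lowest ctrl-inh liver, a gap of 0.57 of the range. The brighter Scarb1 probe read 3.29 in miR-185-inh mouse 3 and 3.24 in ctrl-inh mouse 4, both inside the range of the other livers or at its lower end.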

How the results depend on the processing

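Under 32 alternative settings no member probe passed the threshold, and the lowest adjusted p was 0.178, for the brighter Sort1 probe. The 95% intervals, all including 0 in the main fit, depended on the setting. That of the dimmer Sort1 probe was 0.0061 to 0.44 with slide row as a covariate and 0.025 to 0.42 with row and column. That of Lcat was -0.21 to -0.012 with quantile normalization and -0.29 to -0.0026 with the percentile over detected probes. That of Sort1 was 0.011 to 0.40 with the mean of a gene's probes. In slide row 1 alone it was 0.065 to 0.50 for the dimmer Sort1 probe and 0.021 to 0.62 for Npc1. Some fits with 1 mouse left out also excluded 0 for Sort1 or Mttp. With normexp, array weights or the authors' values, every member interval included 0. Of 380 alternative differences 349 kept their direction and 31 reversed. Sort1 (both probes), Mttp and Lcat kept theirs in every setting run, with ranges of 0.091 to 0.29 and 0.13 to 0.28 for Sort1, 0.062 to 0.12 for Mttp and -0.21 to -0.030 for Lcat. Reversed values were -0.078 for Lipc with normexp, -0.013 for Scarb1 and -0.012 for Lipc with the percentile over probes detected on all arrays, and 0.0038 for Pltp and 0.0099 for Lipa with array weights. In slide row 1 alone Lrp1 was 0.064 and Pltp 0.026, and in row 2 alone the Scarb1 probes were -0.055 and -0.027, Lipc -0.034 and Npc1 -0.090. Without miR-185-inh mice 3 and 6, chosen after seeing the data, Lipc was -0.028, Soat2 -0.0055, Lipa 0.023 and Npc1 -0.043. Leaving out 1 mouse at a time gave ranges of -0.014 to 0.036 and -0.11 to 0.30 for the Scarb1 probes, -0.023 to 0.035 for Pltp and -0.027 to 0.071 for Lipc, and without reversal 0.028 to 0.11 for Soat2 and 0.035 to 0.17 for Npc1. The cause of these reversals was not tested.

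With a replicate block over the shared mouse numbers, which do not pair the samples, the Scarb1 probes were -0.025 and -0.20 and Lipc -0.024, no member probe was called, and 0 of all probes were called (3539 at an unadjusted p under 0.05). In that fit the group difference rests only on the 5 mouse numbers present in both groups, so it uses fewer arrays.

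The count of all probes called was 1516. It was 896 with quantile normalization, 2285 with the percentile over detected probes, 0 in slide row 1 alone (6049 unadjusted) and 355 in row 2 alone. Leaving out 1 mouse gave 885 to 2022; it was lowest without miR-185-inh mouse 6 (951) or 7 (885) or ctrl-inh mouse 11 (910) or 12 (889). The share of higher calls was 25.2% (382 of 1516), 48.0% with normexp, 48.5% with quantile normalization and 14.8% without a filter on dim probes. No called gene appeared in the related lists of the 10 settings where they were read. The number of arrays limits all of this.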
